A study of Mus musculus with 40 samples.

Results

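Interferon-induced genes are the set of 36 genes described here, chosen by symbol from the 47729 symbols of the deposited tables. They were followed over all 8 groups of the study, and all 36 had enough counts to be tested in every comparison. When a cell detects foreign or misplaced nucleic acid it releases type I interferon. Interferon binding to its receptor activates the kinases Jak1 and Tyk2, and a complex that holds Stat2 and Irf9 then binds a short DNA element, the interferon-stimulated response element, beside target genes. The products block viral entry, transcription and translation, sense more nucleic acid and feed back on the pathway. Interferon-gamma acts through another element and favours the guanylate-binding proteins, antigen presentation and Cxcl10.

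The members were grouped by role as 7 sensors and signalling factors, 19 antiviral effectors, 2 genes of the ISG15 modifier system, 6 interferon-induced GTPases of the Gbp and Irg families, and an antigen transporter subunit with a chemokine. RNA came from the number 4 inguinal mammary gland, freed of its lymph node, of Balb/cJ mice ovariectomised at 21 days of age and given 7 days to recover. All 8 groups carried the ovariectomy and held 5 mice each. Estrogen-treated mice ate the control diet (AIN 93G based) and drank water with 200 nM estrogen. They were sampled at 60 h and 84 h beside controls of the same times. CLA-fed mice ate that diet with conjugated linoleic acid (CLA), a mixture of fatty acids, as 2.7% fat, and were sampled at 108 h and 132 h beside their own controls. The tissue was a frozen piece of fat pad with its epithelium, and its poly-A RNA was read from strand-marking libraries. In such a bulk sample, fewer cells of a type and less RNA per cell cannot be told apart.

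Library totals ran from 18183713 to 40026800 counts. Adipocyte markers were high in all 40 libraries, with a summed level of 10097 to 26562 CPM, a count scaled to the library total, over 10 genes. In 9 libraries the mean of the skin and hair markers was 2.69 log2 CPM or more, against 1.40 at most in the others: 1 with estrogen at 60 h, 3 with estrogen at 84 h, 2 controls at 108 h and 3 controls at 132 h. The members stood far above the rest of their group in replicate 2 of the controls at 60 h and in replicate 3 of CLA at 132 h, and less far in replicate 5 of the controls at 108 h. Results are therefore given with medians, and with and without these 3 libraries. Leaving them out was decided from the members' own levels after the data were seen, so it lowers the control level at 60 h and 108 h and the CLA level at 132 h by construction. The early table (60 h and 108 h) and the late table (84 h and 132 h) each share 1 estimate of spread, so replicate 2 of the controls at 60 h also widens the errors of the CLA comparison at 108 h.

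The element bound by the complex with Stat2 and Irf9 was looked for in the RefSeq promoter windows, from 250 bases before to 50 after a gene's start, in GRCm38.p6. Of the 36 members, 27 had a window. The core GAAANNGAAA, read on both strands as GAAANNGAAA or TTTCNNTTTC, was in 18 of these 27 genes (66.7%) and in 3.99% of all 27025 genes with a window. The interferon-gamma activated element TTCNNNGAA, which reads the same way on both strands, was in 5 of 27 (18.5%) against 9.55% of all genes. The core stood in 5 of 5 GTPase genes, 8 of 14 effectors, 3 of 5 sensors and signalling factors and 1 of 2 in the group of Tap1 and Cxcl10. A match describes the letters only. The windows below are shown because these genes carry the results that follow: effectors and Isg15, high in single libraries, Oas3 and Cxcl10, which were called higher with CLA at 132 h, and Gbp7, which was not.
Isg15: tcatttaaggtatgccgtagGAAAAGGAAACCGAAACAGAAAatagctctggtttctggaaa
Ifit1: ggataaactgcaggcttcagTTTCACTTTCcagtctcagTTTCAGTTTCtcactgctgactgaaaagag
Ifit3: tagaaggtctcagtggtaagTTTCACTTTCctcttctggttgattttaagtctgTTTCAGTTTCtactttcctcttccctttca
Ifit3b: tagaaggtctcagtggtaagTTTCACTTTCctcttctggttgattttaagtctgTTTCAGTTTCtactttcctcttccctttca
Oas3: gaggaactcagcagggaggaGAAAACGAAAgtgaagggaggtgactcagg
Bst2: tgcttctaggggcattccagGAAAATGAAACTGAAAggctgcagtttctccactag
Gbp7: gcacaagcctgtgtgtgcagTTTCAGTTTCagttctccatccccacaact
Cxcl10: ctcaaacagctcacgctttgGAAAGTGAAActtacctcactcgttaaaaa
Each is written 5′ to 3′ on the strand of its gene, and capitals mark the core on either strand. The windows lie before the starts in GRCm38.p6: Isg15 at chr4:156200855-156200916 (minus strand), Ifit1 at chr19:34640765-34640833 (plus strand), Ifit3 at chr19:34583353-34583436 (plus strand), Ifit3b at chr19:34607749-34607832 (plus strand), Oas3 at chr5:120777705-120777754 (minus strand), Bst2 at chr8:71537567-71537622 (minus strand), Gbp7 at chr3:142530263-142530312 (plus strand) and Cxcl10 at chr5:92349073-92349122 (minus strand). Isg15 has 3 overlapping cores in 62 bases, Ifit1 has 2 cores, and the windows of Ifit3 and Ifit3b differ at 0 of 84 bases. Oasl1, the member with the smallest p in the CLA comparison at 132 h, has a RefSeq window without the core, as do Oasl2, Irf7, Irf9, Ifit2, Cmpk2, Ifi44, Xaf1 and Tap1.

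Gene models of GENCODE M21 (GRCm38) place the members on 14 chromosomes, with clusters of Ifit genes on chromosome 19 and of Oas and Oasl genes on chromosome 5. They class Mx2 and Gbp11 as polymorphic pseudogenes. Some members have near copies, and their values are less certain because how the authors counted shared reads is not given in the sources used here. The longest transcripts of Ifit3 and Ifit3b were 98.0% identical over 1697 aligned bases, those of Oas1a and Oas1g 97.5%, and those of Mx1 and Mx2 80.0%. Irf9, Rtp4, Parp14, Gbp7 and Igtp overlap another gene on the same strand, and 10 members overlap one on the other strand.

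Levels per gene length, as medians of RPKM, a read count scaled by library total and gene length, over all 40 libraries, spanned from 36.1 RPKM for Bst2 to 0.102 RPKM for Cxcl10. Bst2, a membrane protein that tethers budding virus, was followed by Gbp2 at 13.5, Rtp4 at 9.54, Stat2 at 9.38 and Irf7 at 9.26 RPKM. The ranges of Gbp2 (11.2 to 26.6) and Rtp4 (5.83 to 45.6) overlapped, so their order is not separated from the spread between libraries. The lowest were Mx1 at 0.631, Igtp at 0.364 and Oas3 at 0.339 RPKM. The interferons themselves were near absent: of 21 ligand genes 13 had no count in any library, the highest count of any in a library was 7, and none could be tested. Ifng reached 53 counts over 28 libraries and Ifnb1 2 counts in all.

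The mean log2 CPM over the 36 members gives each library 1 value. In controls the group medians were 3.66 at 60 h, 3.78 at 84 h, 3.79 at 108 h and 3.76 at 132 h, a span of less than the range within any of these groups. With estrogen the medians were 3.32 at 60 h and 3.76 at 84 h. With CLA they were 4.44 at 108 h and 4.24 at 132 h. The means with SD (n = 5) at 60 h were 4.26 ± 1.23 for controls and 3.35 ± 0.21 for estrogen. At 84 h they were 3.72 ± 0.30 and 3.72 ± 0.22. For controls and CLA they were 4.07 ± 0.62 and 4.40 ± 0.19 at 108 h, then 3.74 ± 0.17 and 4.54 ± 0.85 at 132 h. Median and mean thus differed most where 1 library stood apart: at 60 h it reached 6.42 and the next control 4.13, at 132 h it reached 6.05 and the next CLA library 4.27, and at 108 h 5.06 against 4.26. The other CLA libraries at 132 h lay at 3.97 to 4.27, above all 5 controls of that time, which reached 3.89.

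**Figure D1:**
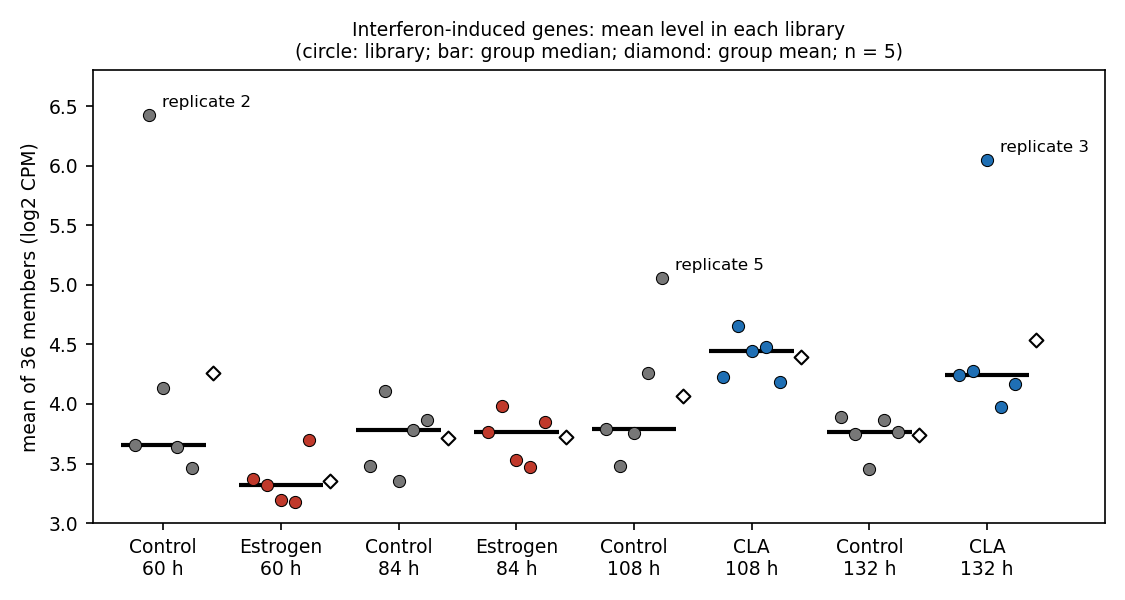
Mean log2 CPM of the 36 members (vertical axis) in each library, by group (horizontal axis); circles are libraries, bars group medians and diamonds group means, with n = 5. Replicate 2 of the controls at 60 h (6.42) and replicate 3 of CLA at 132 h (6.05) lie far above their groups, and the CLA medians (4.44 and 4.24) lie above those of their controls (3.79 and 3.76).

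The rise in single libraries touched the whole set. In replicate 2 of the controls at 60 h all 36 members exceeded all 4 other controls (22.6% of all tested genes did), with a median CPM ratio of 6.09 to the median of the other 4. Ratios ran from 1.92 for Irf9 to 66.65 for Cxcl10, a chemokine that draws activated T cells. In replicate 3 of CLA at 132 h it was again 36 of 36 (16.8% of all genes), with a median ratio of 3.22, from 1.59 for Gbp2 to 9.71 for Ifit1. In replicate 5 of the controls at 108 h, 35 of 36 did (15.7% of all genes), with a median ratio of 1.98, from 0.81 for Gbp11 to 19.04 for Cxcl10. By role the median ratio in these 3 libraries, in the order just given, was 7.09, 5.02 and 2.67 for antiviral effectors, 3.46, 2.61 and 1.33 for GTPases, and 3.38, 2.54 and 1.49 for sensors and signalling factors. The 2 genes of the ISG15 system stood at 11.9, 5.54 and 3.37. GTPase and sensor medians were thus below the effector median in all 3 libraries. Across the 36 members the log2 ratios of the 60 h and 108 h controls had a Pearson correlation of 0.918, those of the 60 h control and the 132 h CLA library 0.809, and those of the last and the 108 h control 0.667. By rank (Spearman) the same pairs lay closer together, at 0.907, 0.84 and 0.829. The points are genes of the same libraries and are not independent replicates, so these values are descriptions.

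**Figure D2:**
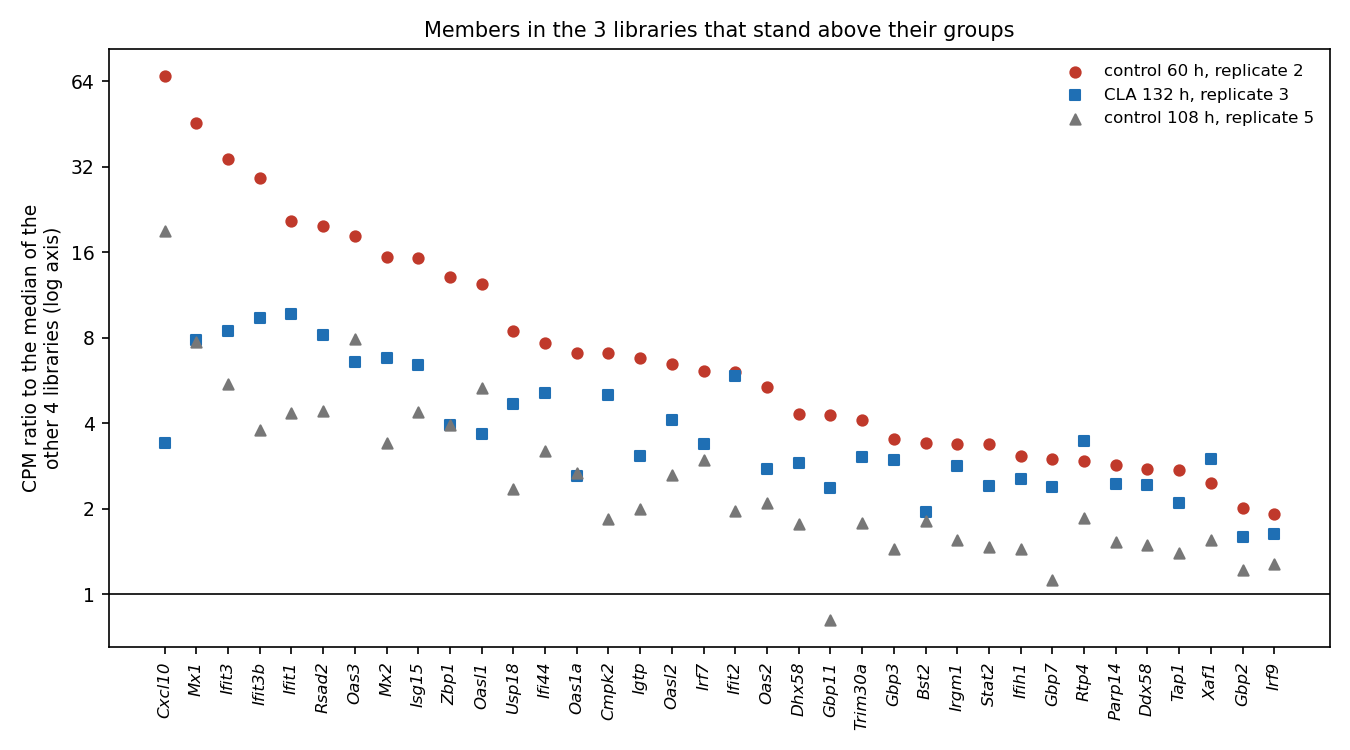
Ratio of each member's CPM in a library to the median of the other 4 of its group (vertical log axis), with members in order of the ratio in replicate 2 of the controls at 60 h (horizontal axis); each symbol is 1 library. Cxcl10 (66.65) and Mx1 lead and Irf9 (1.92) and Gbp2 are lowest in the 60 h control, while the CLA library at 132 h reaches its highest ratio at Ifit1 (9.71).

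Sums of markers of other cells in these 3 libraries are given beside the range of the group, each library included in its own range. The summed CPM of 12 macrophage markers was 1582 in the 60 h control (group 950.4 to 2058), 1020 in the 108 h control (the lowest of 1020 to 1843) and 3801 in the CLA library, the median of its group. T and NK cell markers summed to 17.6 CPM in the 60 h control, the highest of its group, which began at 11.0. Plasmacytoid dendritic cell markers summed to 253 CPM and B cell and lymph node markers to 43.3 CPM in the CLA library, both the highest of a group that began at 213.5 and 8.97. Neutrophil markers were at the top of their group in the 108 h control (69.8 CPM, group from 27.2) and the CLA library (65.3 CPM, group from 16.2). Luminal epithelial markers were also highest of the group in the 108 h control (196 CPM, group from 67.5) and the CLA library (277 CPM, group from 39.25). Endothelial markers were lowest of the group in the CLA library (753 CPM, group up to 923). By mean log2 CPM, which weights the markers of a list equally, some of these places changed. Macrophage markers were then the highest of the group in the 60 h control (6.35, next 6.29). At 108 h replicate 1 (5.74) was below replicate 5 (5.82). In the CLA library plasmacytoid (1.26) and neutrophil markers (-0.18) were below replicate 5 of that group (1.45 and -0.15). The other places named did not change. No marker of the macrophage, plasmacytoid, T and NK or B cell lists that the tables hold was at 0 in all 5 libraries of these groups. The part of these cells in the 3 libraries was not tested.

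The CLA comparison sets mice fed the CLA diet against controls of the same time. At 132 h, 24 of 36 members were called higher and 1, Gbp11, lower, where 27% and 29% of all tested genes were called in these directions (edgeR quasi-likelihood test, adjusted p below 0.05). The members' median log2 fold change was 1.11, against -0.03 over all genes. At 108 h only Oas1a was called higher and 0 were lower (24.9% and 23% of all genes), 1 member had an unadjusted p below 0.05, and the median was 0.11 against -0.01. Without the 3 libraries it was 19 higher and 1 lower at 108 h (23.5% and 22.3% of genes), with a median of 0.41, and 15 higher and 4 lower at 132 h (25.1% and 26.5%), with a median of 0.27. Leaving out replicate 5 of the 108 h controls alone gave 3 higher at 108 h, Oas1a, Oas3 and Oasl1, and 0 lower, so the other calls among the 19 came with also leaving out replicate 2 of the 60 h controls, which shares the fit. Without the 3 libraries, all 15 called higher at 132 h were among the 19 at 108 h. They were Dhx58, Zbp1, Irf9, Mx1, Oas1a, Oas2, Oas3, Oasl1, Oasl2, Rsad2, Bst2, Rtp4, Ifi44, Trim30a and Cxcl10. The libraries were left out by the members' own levels, so this overlap is a description and no test of likeness between the times.

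By counts of libraries, 12 members at 132 h had all 5 CLA libraries above all 5 controls (20.8% of all genes did) and none had them below (16%). At 108 h 0 members separated upward (18.1%) and 0 downward (14.1%). Leaving out the 3 libraries, 11 members separated upward at 108 h (19% of genes) and 12 at 132 h (21%), with Gbp7 and Gbp11 separated downward at 132 h (16.5%). Replicate 3 of CLA at 132 h was the highest of its group in all 36 members. The upward 12 therefore returned by construction, and downward separations could only be gained. The control left out at 108 h was the highest in 35 of 36 members, so upward separations could only be gained. These counts are descriptions, not tests. By role, at 132 h with all libraries, 5 of 7 sensors and signalling factors were called higher (median log2 fold change 0.53), 17 of 19 antiviral effectors (1.47), 1 of 2 in the ISG15 system (1.19), 0 of 6 GTPases (0.08) and 1 of the pair Tap1 and Cxcl10 (1.56). Without replicate 3 of CLA at 132 h the counts were 3, 11, 0, 0 and 1, and 4 GTPases were called lower.

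**Figure D3:**
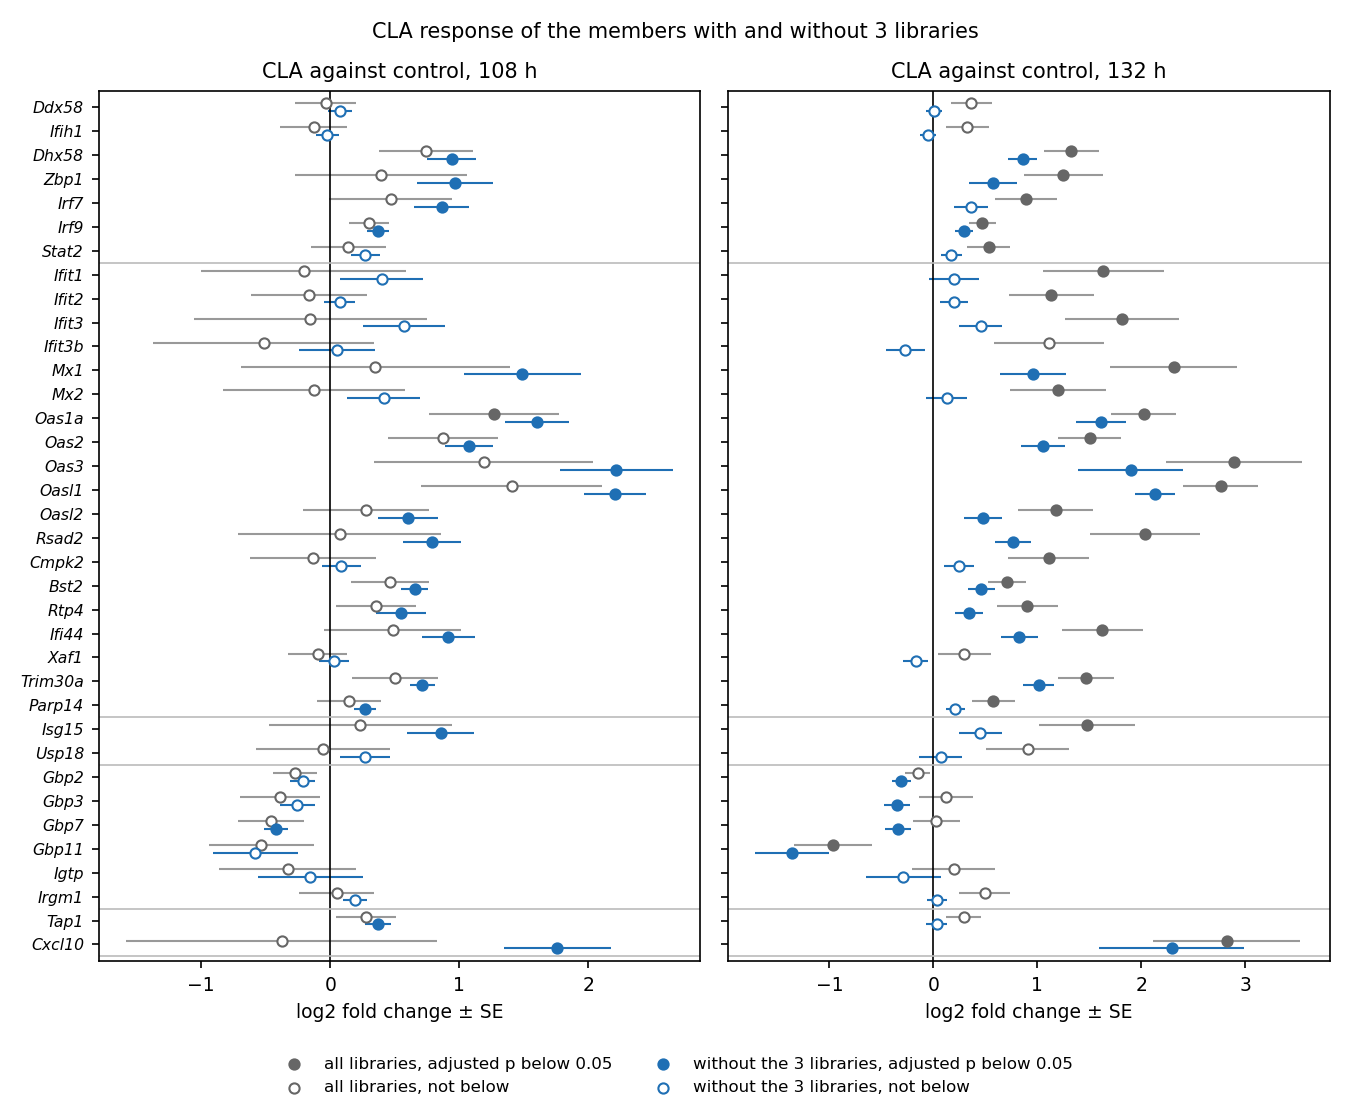
Log2 fold change of CLA against control with its SE (horizontal axis) for each member (vertical axis, lines divide the roles), at 108 h on the left and 132 h on the right; grey marks use all libraries, blue marks leave out the 3 libraries, and filled marks have an adjusted p below 0.05. Leaving them out raises the 108 h values of all members but Gbp11 and lowers all 132 h values; Oas and Oasl genes are right of 0 at both times in either colour, while the blue marks of Gbp2, Gbp3, Gbp7 and Gbp11 are left of 0.

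Values for the members that carry these counts follow, in CPM with replicates 1 to 5 in order, all from edgeR's quasi-likelihood fit where an adjusted p is given. The 2′-5′ oligoadenylate synthetases and their relatives come first. Oasl1, a synthetase-like protein without synthetase activity that restrains Irf7 translation (chromosome 5, 114923240 to 114937915), stood at 5.90, 5.70, 5.44, 8.77 and 30.97 CPM in the controls at 108 h and at 29.8, 37.4, 31.2, 32.6 and 19.3 CPM with CLA. At 132 h Oasl1 was at 6.78, 6.49, 4.17, 5.71 and 7.76 CPM in controls and 26.3, 30.2, 103, 22.9 and 29.9 CPM with CLA. Every CLA library at 132 h was above every control, and at 108 h 4 of the 5 controls lay below all CLA libraries while replicate 5 lay among them. The log2 fold change of Oasl1 was 1.41 ± 0.70, adjusted p = 0.109 at 108 h and 2.76 ± 0.36, adjusted p = 4.12e-06 at 132 h. With those 3 libraries left out it was 2.21 ± 0.24 (adjusted p = 1.71e-06) and 2.13 ± 0.19 (adjusted p = 5.5e-08).

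Oas1a makes a second messenger of short linked adenylates in response to double-stranded RNA (chromosome 5, 120896256 to 120907521). Its levels were 6.91, 5.73, 6.25, 11.04 and 17.6 CPM in controls and 21.4, 28.01, 23.6, 25.98 and 15.5 CPM with CLA at 108 h. The levels of Oas1a at 132 h were 8.52, 7.86, 4.75, 7.94 and 6.48 CPM and 19.5, 26.2, 58.3, 17.01 and 25.04 CPM in the same order. The groups overlapped at 108 h through replicate 5 of each and did not overlap at 132 h. Oas1a rose at both times, by 1.27 ± 0.50, adjusted p = 0.0462, and by 2.02 ± 0.31, adjusted p = 2.43e-05. The 108 h call was lost on leaving out any 1 library other than replicate 5 of either group, with an adjusted p of up to 0.1, and without the 3 libraries it was 1.60 ± 0.25 (adjusted p = 6.33e-05).

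Oas3, which prefers long double-stranded RNA (chromosome 5, 120753098 to 120777661), was at 1.45, 1.46, 2.40, 4.33 and 15.2 CPM in controls and 10.2, 15.6, 11.9, 12.2 and 6.49 CPM with CLA at 108 h. At the later time it was at 3.90, 2.77, 1.12, 2 and 1.32 CPM in controls and 7.59, 12.8, 50.3, 5.51 and 7.68 CPM with CLA. The log2 fold change of Oas3 at 132 h was 2.89 ± 0.66, adjusted p = 0.00114, with no overlap of the groups, and 1.90, adjusted p = 0.00466 without replicate 3 of CLA. At 108 h the value was 1.19 ± 0.85, adjusted p = 0.267, and 2.22 ± 0.44 (adjusted p = 0.0006) without the 3 libraries. Oas2 (chromosome 5, 120730333 to 120749853) moved from 24.8, 23.8, 25.5, 43.3 and 52.8 CPM to 60.7, 81.6, 59.98, 63.2 and 46.5 CPM at 108 h. Its 132 h levels were 26.7, 30.98, 19.3, 28 and 23.1 CPM in controls and 50.3, 65.4, 152, 38.9 and 59.9 CPM with CLA, again without overlap. The log2 fold change of Oas2 was 0.87 ± 0.43, adjusted p = 0.102 at 108 h and 1.502 ± 0.30, adjusted p = 0.000432 at 132 h.

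**Figure D4:**
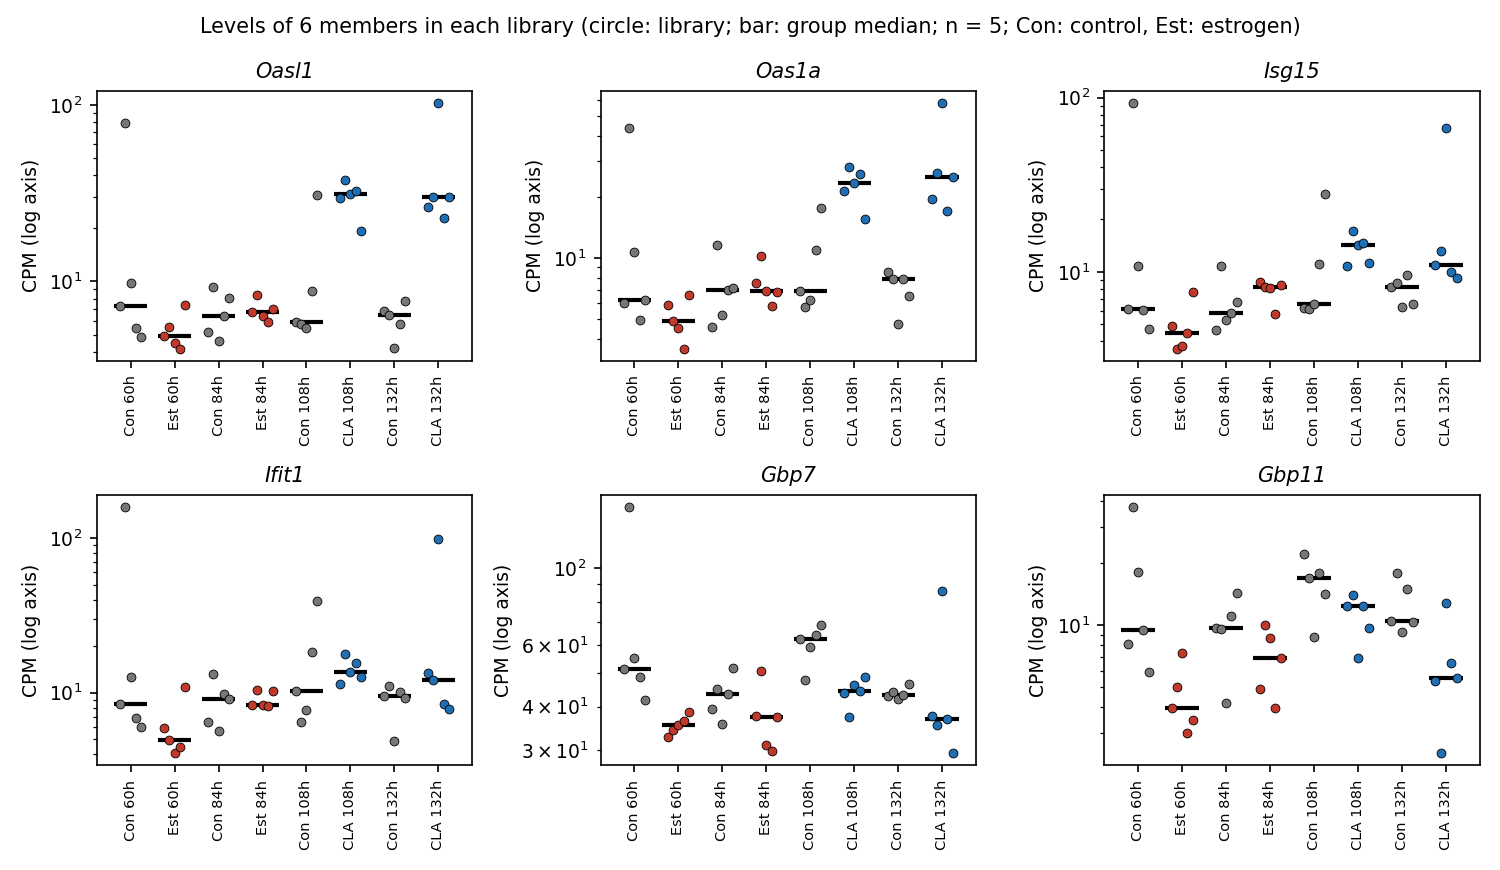
CPM (vertical log axis) of 6 members in each library, by group (horizontal axis); circles are libraries and bars group medians, with n = 5. Oasl1 and Oas1a are higher with CLA at both times apart from replicate 5 of the 108 h controls, Isg15 and Ifit1 are highest in single libraries, and the Gbp7 and Gbp11 medians are lower with CLA than in controls.

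The Ifit proteins bind viral RNA that lacks the host's cap methylation. Ifit1 (chromosome 19, 34640871 to 34650009) was at 10.3, 6.46, 7.68, 18.4 and 39.2 CPM in controls and 11.4, 17.9, 13.5, 15.5 and 12.7 CPM with CLA at 108 h. At 132 h it was at 9.50, 11.1, 4.86, 10.2 and 9.26 CPM in controls and 13.4, 12.01, 99.3, 8.45 and 7.80 CPM with CLA. The groups overlapped at both times, and replicate 3 of CLA at 132 h was far above all others. Ifit1 passed the test at 132 h (1.64 ± 0.58, adjusted p = 0.0239), but without that library the value was 0.20 ± 0.24 (adjusted p = 0.518), and the call was also lost without replicate 3 of the controls. At 108 h the value was -0.21 ± 0.80, adjusted p = 0.855.

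Ifit3b, the near copy of Ifit3 (chromosome 19, 34607970 to 34613401), was at 4.16, 2.25, 3.05, 6.34 and 13.7 CPM in controls and 2.56, 5.90, 4.002, 4.31 and 3.82 CPM with CLA at 108 h. The 132 h levels of Ifit3b were 4.26, 3.52, 2.93, 4.59 and 3.97 CPM and, with CLA, 3.19, 4.02, 29.3, 2.62 and 3.05 CPM. It passed no CLA test: -0.52 ± 0.86, adjusted p = 0.653 at 108 h and 1.12 ± 0.53, adjusted p = 0.0821 at 132 h. Ifit3 and Ifit2 were called higher at 132 h (1.81 ± 0.55 and 1.14 ± 0.41, adjusted p = 0.00916 and 0.0258), and neither was without replicate 3 of CLA (0.46 ± 0.21 and 0.20 ± 0.13, adjusted p = 0.0715 and 0.227).

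Mx1 (chromosome 16, 97447035 to 97462907) encodes, when intact, a dynamin-like GTPase that traps viral nucleoproteins. Whether these mice make a working protein cannot be read from RNA levels. Mx1 was at 3.42, 3.20, 4.54, 6.11 and 30.8 CPM in controls and 11.9, 15.5, 12.1, 12.8 and 8.60 CPM with CLA at 108 h. At 132 h the controls held 5.60, 3.91, 2.32, 2.71 and 6.13 CPM of Mx1 and CLA libraries 9.84, 9.41, 71.6, 4.37 and 8.85 CPM. In 4 of 5 CLA libraries at 132 h the level was above every control, and replicate 4 lay inside the control range. Mx1 rose at 132 h (2.31 ± 0.61, adjusted p = 0.00368) and, without the 3 libraries, at both times (1.49 ± 0.45 and 0.96 ± 0.32, adjusted p = 0.0135 and 0.0183). Leaving out replicate 5 of the 108 h controls alone, the adjusted p of Mx1 at 108 h was 0.284. With all libraries the 108 h value was 0.35 ± 1.04, adjusted p = 0.811. Mx2 was called higher at 132 h (1.20 ± 0.46, adjusted p = 0.0359) and not without replicate 3 of CLA (0.13 ± 0.20, adjusted p = 0.607) or without replicate 1, 2, 3 or 5 of the controls.

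Bst2 (chromosome 8, 71534255 to 71537456), the member with the highest RPKM, was at 36.2, 32.4, 33.4, 42.4 and 62.9 CPM in controls and 52.2, 63.9, 57.4, 63.1 and 49.1 CPM with CLA at 108 h. At 132 h the values were 38.6, 36.3, 35.4, 44.7 and 36.3 CPM and 53.1, 51.95, 103, 53.9 and 53.2 CPM. The groups did not overlap at 132 h, and at 108 h only replicate 5 of the controls reached the CLA range. The log2 fold change was 0.46 ± 0.30, adjusted p = 0.223 at 108 h and 0.71 ± 0.18, adjusted p = 0.00312 at 132 h, and 0.66 ± 0.11 (adjusted p = 7.41e-05) at 108 h without the 3 libraries, against an adjusted p of 0.0968 without replicate 5 of the 108 h controls alone. Trim30a, a ubiquitin ligase that dampens NF-kB signalling, Ifi44 and Rsad2, the antiviral enzyme viperin, were also called higher at 132 h (1.47 ± 0.27, 1.62 ± 0.39 and 2.03 ± 0.53, adjusted p = 0.000158, 0.00185 and 0.00332). All 3 remained called without replicate 3 of CLA (1.01 ± 0.15, 0.83 ± 0.18 and 0.76 ± 0.17, adjusted p = 1.41e-05, 0.000749 and 0.00128). Of the effectors, Xaf1 and Ifit3b did not pass the test at 132 h.

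Among the sensors, the RNA helicases divided. Dhx58 (LGP2), which lacks the signalling domain of its relatives, was called higher at 132 h (1.33 ± 0.26, adjusted p = 0.000284), while Ddx58 (RIG-I) and Ifih1 (MDA5), which have it, were not (0.36 ± 0.20 and 0.33 ± 0.21, adjusted p = 0.122 and 0.188). Ifih1 (chromosome 2, 62595798 to 62646255) was at 30.7, 28.8, 37.1, 42.6 and 48.8 CPM in controls and 31.9, 35.4, 35.9, 36.2 and 32.7 CPM with CLA at 108 h. At 132 h it was at 37.1, 32.3, 28.6, 34.1 and 32.1 CPM and 30.4, 34.97, 79.97, 32.5 and 29.8 CPM. Replicate 3 of CLA held more than every other library of that time, and the remaining values of both groups overlapped. The difference between these helicases was not tested.

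Zbp1, a sensor of Z-form nucleic acid that can start necroptosis (chromosome 2, 173206612 to 173218923), was at 8.65, 7.60, 9.92, 15.9 and 36.7 CPM in controls and 18.1, 22.2, 22.8, 24.2 and 16.2 CPM with CLA at 108 h. Its 132 h levels were 12.99, 13.3, 7.18, 11 and 10.3 CPM in controls and 18.3, 17.5, 65.9, 13.8 and 16.01 CPM with CLA, without overlap. It rose at 132 h (1.25 ± 0.38, adjusted p = 0.00937), also without replicate 3 of CLA (0.57 ± 0.23, adjusted p = 0.0471), and the 108 h value was 0.39 ± 0.67, adjusted p = 0.659.

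Irf7, the factor that amplifies type I interferon production (chromosome 7, 141262706 to 141266481), was at 28.2, 25.8, 24.4, 44.5 and 80.4 CPM in controls and 47.5, 68.3, 53.7, 70.5 and 41.1 CPM with CLA at 108 h. At 132 h Irf7 was at 34.5, 39.5, 31.9, 46.3 and 27.3 CPM and 46.6, 55.1, 151, 41.1 and 42.7 CPM, with overlap at both times. It was called at 132 h (0.89 ± 0.30, adjusted p = 0.0176), not without replicate 3 of CLA (0.36 ± 0.16, adjusted p = 0.0741), and at 108 h without the 3 libraries (0.86 ± 0.22, adjusted p = 0.00378) but not without replicate 5 of the 108 h controls alone (adjusted p = 0.157). Stat2 (chromosome 10, 128270559 to 128292849) was at 63.7, 48.1, 61.9, 71.3 and 92.2 CPM in controls and 69.5, 88.1, 76.3, 73.95 and 64.3 CPM with CLA at 108 h. For 132 h the values were 63.3, 59.7, 55.8, 60.4 and 57.4 CPM and 69.02, 70.6, 164, 62.4 and 67.7 CPM. Its call at 132 h (0.53 ± 0.21, adjusted p = 0.0365) was lost without replicate 3 of CLA (0.17 ± 0.10, adjusted p = 0.157) and without replicate 2, 3, 4 or 5 of the controls. Irf9, its partner, rose at 132 h (0.47 ± 0.13, adjusted p = 0.00361), without overlap of the groups, and without that library too (0.30 ± 0.09, adjusted p = 0.00703).

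Isg15 encodes the ubiquitin-like modifier attached to many proteins after interferon (chromosome 4, 156199424 to 156200818), and Usp18 the enzyme that removes it and shuts off the receptor. Isg15 was at 6.20, 6.08, 6.58, 11.1 and 28.1 CPM in controls and 10.8, 17.2, 14.2, 14.6 and 11.2 CPM with CLA at 108 h. The 132 h levels were 8.16, 8.64, 6.29, 9.59 and 6.57 CPM and 11, 13.1, 67.1, 9.96 and 9.25 CPM. The groups overlapped at both times, at 132 h through replicate 5 of CLA and the highest control. Isg15 was called at 132 h (1.48 ± 0.46, adjusted p = 0.0111) and not without replicate 3 of CLA (0.45 ± 0.20, adjusted p = 0.0716). At 108 h its value was 0.23 ± 0.71, adjusted p = 0.815, and without the 3 libraries 0.86 ± 0.26 (adjusted p = 0.0133), with an adjusted p of 0.362 when replicate 5 of the 108 h controls alone was left out. Usp18 was not called at either time (-0.06 ± 0.52 and 0.91 ± 0.40, adjusted p = 0.938 and 0.0601).

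Of the 6 GTPases of the Gbp and Irg families, which attack the vacuoles of intracellular microbes, 0 were called higher at either time, with or without the 3 libraries. Mx1 and Mx2, GTPases of another family, are counted with the effectors. Gbp2 (chromosome 3, 142620602 to 142638008) was at 48.04, 40.6, 51.5, 46.3 and 57.2 CPM in controls and 35.5, 42.4, 45.5, 37.5 and 40.98 CPM with CLA at 108 h. At 132 h it was at 45.98, 38.9, 47.8, 44.7 and 51.8 CPM and 40.6, 34.8, 58.9, 37.1 and 36.9 CPM. Gbp2 did not pass the test with all libraries (-0.27 ± 0.17 and -0.15 ± 0.12, adjusted p = 0.204 and 0.305), and without replicate 3 of CLA it was lower at 132 h (-0.31 ± 0.09, adjusted p = 0.00904).

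Gbp7 (chromosome 3, 142530342 to 142550149) was at 62.6, 47.8, 59.5, 64.4 and 68.6 CPM in controls and 43.7, 37.4, 46.05, 44.4 and 48.6 CPM with CLA at 108 h. For Gbp7 at 132 h the controls held 42.9, 44.03, 42.01, 43.1 and 46.4 CPM and the CLA libraries 37.6, 35.3, 86.1, 36.9 and 29.5 CPM. In 4 of 5 CLA libraries at 132 h the level was below every control, and replicate 3 was above them all. The log2 fold change was -0.46 ± 0.26, adjusted p = 0.148 at 108 h and 0.03 ± 0.22, adjusted p = 0.922 at 132 h. Once the 3 libraries were left out, Gbp7 fell at both times (-0.42 ± 0.09 and -0.34 ± 0.13, adjusted p = 0.00137 and 0.0331), where the 108 h call needs both early libraries left out (adjusted p = 0.235 without replicate 5 of the 108 h controls alone), and Gbp3 fell at 132 h (-0.35 ± 0.13, adjusted p = 0.0264).

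Gbp11 (chromosome 5, 105323042 to 105346472) was at 22.2, 16.98, 8.75, 17.9 and 14.2 CPM in controls and 12.4, 14, 6.91, 12.4 and 9.75 CPM with CLA at 108 h. At 132 h Gbp11 stood at 10.5, 17.9, 9.27, 15 and 10.4 CPM in controls and 5.34, 2.41, 12.9, 6.52 and 5.52 CPM with CLA. Every CLA library other than replicate 3 was below every control. It fell at 132 h (-0.96 ± 0.37, adjusted p = 0.0358), a call lost on leaving out replicate 2 or 4 of the controls or replicate 1, 2, 4 or 5 of CLA, and was -1.36 ± 0.35 (adjusted p = 0.00373) without replicate 3 of CLA. Igtp, which shares its strand and place with Irgm2 (chromosome 11, 58199556 to 58207591), was below 1 CPM in most libraries, with 0.446, 0.587, 0.347, 0.706 and 0.397 CPM in controls and 0.404, 0.285, 1.24, 0.408 and 0.524 CPM with CLA at 132 h, and 0.325, 0.253, 0.356, 0.651 and 0.679 CPM and 0.139, 0.604, 0.480, 0.236 and 0.329 CPM at 108 h. Neither Igtp nor Irgm1 was called (0.19 ± 0.40 and 0.49 ± 0.24 at 132 h, adjusted p = 0.702 and 0.0932).

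Cxcl10 (chromosome 5, 92346638 to 92348889) was the least abundant member, with 1 to 7 counts in the controls and 14 to 48 in the CLA libraries at 132 h, and had the highest ratio in 2 of the 3 libraries that stood apart. It was at 0.236, 0.158, 0.259, 0.141 and 3.75 CPM in controls and 0.520, 0.924, 0.934, 0.404 and 0.626 CPM with CLA at 108 h. At 132 h it was at 0.284, 0.0326, 0.0772, 0.0588 and 0.0882 CPM in controls and 0.763, 0.444, 1.81, 0.408 and 0.617 CPM with CLA. All 5 CLA libraries at 132 h were above all controls, and at 108 h they were above 4 of the 5 controls. The 108 h value was -0.38 ± 1.21, adjusted p = 0.825, and 1.76 ± 0.41 (adjusted p = 0.00216) without the 3 libraries, with an adjusted p of 0.279 when replicate 5 of the 108 h controls alone was left out. At 132 h Cxcl10 rose by 2.82 ± 0.70, adjusted p = 0.00212. Tap1, a subunit of the peptide transporter for MHC class I (chromosome 17, 34187553 to 34197225), was at 35.2, 31.4, 36.6, 45.4 and 50.03 CPM in controls and 42.9, 52.6, 53.2, 49.2 and 43.3 CPM with CLA at 108 h. For Tap1 at 132 h the values were 45.2, 38.3, 42.5, 40.5 and 45.3 CPM and 42.4, 38.9, 87.3, 40.9 and 52.2 CPM, overlapping, and neither time was called with all libraries (0.28 ± 0.23 and 0.29 ± 0.17, adjusted p = 0.34 and 0.146).

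**Figure D5:**
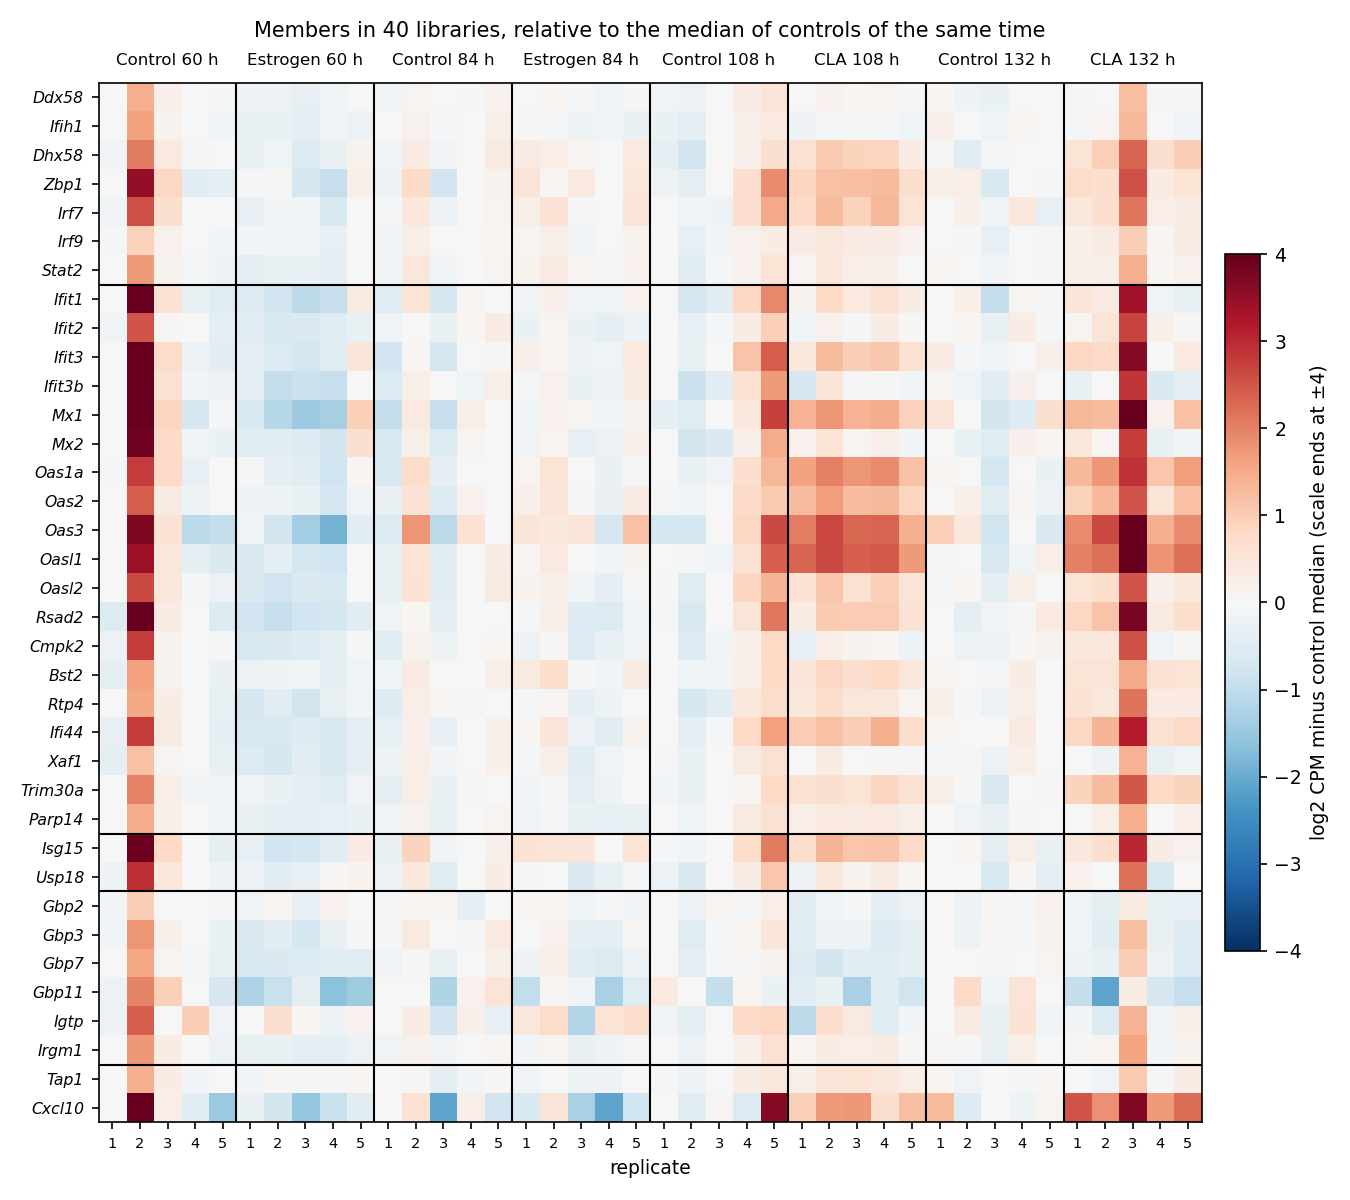
Log2 CPM minus the median of the controls of the same time (colour) for each member (rows, divided by role) in each of the 40 libraries (columns, replicates 1 to 5 within each group). Replicate 2 of the controls at 60 h and replicate 3 of CLA at 132 h are red in nearly all rows, and the CLA groups are red in the Oas, Oasl and Cxcl10 rows and, replicate 3 at 132 h apart, mostly pale or blue in the Gbp rows.

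The counts of 24 and 1 calls do not by themselves show a difference between the times. Tested in 1 fit of all 40 libraries, the CLA effect at 132 h minus that at 108 h was called in 0 members and in 0% of all genes (edgeR quasi-likelihood test). Unadjusted p-values were below 0.05 for 4 members, Ifit2, Rsad2, Trim30a and Cxcl10, and DESeq2 called 0 of the 28 members to which it gave an adjusted p, which leaves out Ifit2, Rsad2 and Cxcl10. The members' median difference was 0.70 on the log2 scale with all libraries and -0.10 without the 3.

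Macrophage, adipocyte, endothelial, basal epithelial and skin markers moved with these comparisons. Macrophage markers summed to 2771 to 4206 CPM with CLA and 1020 to 1843 CPM in controls at 108 h, and to 2876 to 5279 CPM against 703.2 to 1220 CPM at 132 h, with 10 and 11 of 12 markers called higher. Markers of plasmacytoid dendritic cells, strong producers of type I interferon, summed to 208 to 265 CPM with CLA against 272 to 304 CPM at 108 h, and to 213.5 to 253 CPM against 231 to 261 CPM at 132 h. Their mean log2 CPM, which weights the 8 markers equally, did not follow the sum at 108 h, with 0.71 to 1.70 with CLA and 0.50 to 1.22 in controls, and 2 of 7 tested were called higher and 2 lower. Adipocyte markers were lower, 9 of 10 at each time. Endothelial markers, 6 of 8 lower at each time, summed to 864 to 1215 CPM with CLA against 1298 to 1710 CPM at 108 h and to 753 to 923 CPM against 1335 to 1698 CPM at 132 h. Basal epithelial markers were lower in 4 of 8 at 108 h and 5 of 8 at 132 h. T and NK cell markers ranged from 14.1 to 23.8 CPM with CLA and 10.7 to 14.3 CPM in controls at 108 h, and from 13.1 to 23.3 CPM against 8.90 to 29.8 CPM at 132 h. Of those tested, 6 of 13 were called higher and 0 lower at 108 h, and 1 of 12 higher and 3 lower at 132 h. The part of these cells in the members' levels was not tested. Without the libraries of high skin signal, which leaves 3 controls at 108 h and 2 at 132 h, 0 members were called higher at 108 h and 7 at 132 h, and the medians were -0.17 and 0.96. No share of all genes stands beside these counts, so fewer controls and a change in the members cannot be told apart.

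The estrogen comparison gives the response to the hormone itself. At 60 h 0 members were called higher and 3 lower, Ifit3b, Gbp7 and Gbp11 (edgeR quasi-likelihood test; 4.07% and 2.42% of all genes were called in these directions), while 33 had an unadjusted p below 0.05. DESeq2 called 16 lower of the 23 members to which it gave an adjusted p. It gave none to the other 13, Ifit3b among them. No share of all genes stands beside the 33 and the 16, so they are not set against a background. Replicate 2 of the controls, the highest in all 36 members, enters each of these tests. The members' median log2 fold change was -1.34, against -0.002 over all genes. Leaving out replicate 2 of the controls at 60 h and the other libraries that stood apart, it was -0.37, with 0 members higher and 1, Gbp7, lower (1.74% and 1.21% of genes). In 6 members, Ifih1, Ifi44, Xaf1, Trim30a, Parp14 and Gbp7, all 5 estrogen libraries were below all 5 controls (2.73% of genes), and in 0 members above (3.6%). Without replicate 2 of the controls 6 again separated downward (4.1%) and 0 upward (4.74%). That library was the highest control in all 36 members. Leaving it out could therefore not change the downward count, which is no test of its influence. The call count was 0 or 1 on leaving out replicate 2 or 3 of the controls or any estrogen library, and 7 without replicate 1 or 5 of the controls. Luminal epithelial markers rose with estrogen, 9 of 10 at 60 h and 6 of 10 at 84 h, and summed to 156 to 411 CPM against 13.3 to 107 CPM at 60 h. Their part in the members' levels was not tested. The estrogen-treated mice carry a run of animal numbers that holds no control, so estrogen and that run cannot be told apart.

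Gbp7 was at 51.3, 150.0, 55.2, 48.6 and 41.8 CPM in controls and 32.8, 34.2, 35.4, 36.4 and 38.7 CPM with estrogen at 60 h, and the groups did not overlap. It fell by 0.96 ± 0.26, adjusted p = 0.0355, and by 0.47 ± 0.09 (adjusted p = 0.0167) without the 3 libraries. Gbp11 was at 8.10, 37.5, 18.2, 9.45 and 5.93 CPM in controls and 3.95, 5.01, 7.30, 3.02 and 3.47 CPM with estrogen, with overlap. Its log2 fold change was -1.80 ± 0.43, adjusted p = 0.023, and -1.19 ± 0.34 (adjusted p = 0.0632) without the 3. Ifit3b was at 2.88, 81.4, 4.44, 2.66 and 2.46 CPM and 2.26, 1.45, 1.56, 1.48 and 2.92 CPM, with overlap, and its log2 fold change of -3.28 ± 0.93, adjusted p = 0.0447 became -0.69 ± 0.30 (adjusted p = 0.204). The Gbp7 call was kept without replicate 2 of the controls and the Gbp11 call was not. Gbp7 lost its call without replicate 3 of the controls or any 1 estrogen library, with an adjusted p of up to 0.0868.

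The other panel members at 60 h show how far 1 library set the group means. Isg15 was at 6.16, 93.4, 10.7, 6.05 and 4.70 CPM in controls (mean 24.2 ± 38.8, SD, n = 5, median 6.16) and 4.91, 3.63, 3.78, 4.44 and 7.68 CPM with estrogen. Ifit1 was at 8.50, 159, 12.7, 6.85 and 6.02 CPM and 5.94, 4.98, 4.09, 4.47 and 10.8 CPM in the same order. Mx1 was at 3.85, 170.4, 7.04, 2.39 and 3.63 CPM and 2.49, 1.71, 1.36, 1.48 and 7.58 CPM. For each, estrogen values overlapped the 4 lower controls. Their adjusted p-values were 0.0712, 0.0671 and 0.065, with log2 fold changes of -2.31 ± 0.75, -2.67 ± 0.85 and -3.69 ± 1.16. The values without the 3 libraries were -0.50 ± 0.26, -0.49 ± 0.32 and -0.54 ± 0.45. Ifih1 was at 34.1, 103, 37.6, 33.6 and 31.5 CPM in controls and 28.4, 28.1, 26.04, 30.4 and 28.9 CPM with estrogen, without overlap and without a call (-0.76 ± 0.26, adjusted p = 0.088).

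Stat2 at 60 h was at 62.6, 206, 69.7, 59.2 and 54.6 CPM in controls and 48.4, 50.9, 51.8, 48.7 and 62.9 CPM with estrogen. Irf7 was at 28.2, 192, 49.6, 31.8 and 31.3 CPM and 25.6, 29.6, 28.3, 20.6 and 32.5 CPM. In both genes replicate 2 of the controls was the highest and the remaining groups overlapped. Zbp1 was at 8.29, 96.1, 14.8, 6.02 and 6.35 CPM in controls and 7.90, 8.47, 5.20, 4.39 and 9.82 CPM with estrogen. Oas2 was at 26.1, 140.3, 32.7, 22.8 and 26.1 CPM and 22.8, 22.8, 21.7, 16.3 and 23.9 CPM. The same held for these. Bst2 was at 29.9, 119.9, 41.99, 38.2 and 32.03 CPM and 32.5, 33.5, 33.9, 29.1 and 34.7 CPM, Tap1 at 35.4, 95.8, 43.3, 32.6 and 34.8 CPM and 32.8, 36.8, 33.7, 33.9 and 37.4 CPM. Gbp2 was at 43.4, 92.97, 47.2, 48.1 and 45.2 CPM and 43.2, 50.3, 37.8, 53.5 and 47.6 CPM. These 3 overlapped outside replicate 2 as well, and Gbp2 had the smallest change of all members (-0.25 ± 0.17, adjusted p = 0.408). Igtp was at 0.243, 1.89, 0.296, 0.657 and 0.259 CPM and 0.299, 0.504, 0.312, 0.247 and 0.340 CPM. Cxcl10 was at 0.212, 11.7, 0.266, 0.138 and 0.0324 CPM and 0.166, 0.101, 0.0284, 0.0822 and 0.136 CPM. None of these 9 was called at 60 h.

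At 84 h estrogen changed no member beyond the test: 0 were called and 0 had an unadjusted p below 0.05 (edgeR quasi-likelihood test; 3.45% and 1.97% of all genes were called higher and lower), and DESeq2 called 0 of the 31 members to which it gave an adjusted p. In 0 members did the groups separate upward (4.79% of genes) or downward (3.25%). The median log2 fold change was 0.01. Isg15 was at 4.66, 10.9, 5.27, 5.77 and 6.72 CPM in controls and 8.70, 8.22, 8.07, 5.74 and 8.44 CPM with estrogen (0.25 ± 0.46, adjusted p = 0.805). Oas2 was at 21.4, 39.6, 17.8, 29.6 and 26.3 CPM and 29.9, 37.2, 25.4, 21.9 and 32.1 CPM. Bst2 was at 30.5, 43.5, 34.6, 34.4 and 41.5 CPM and 44.4, 55.7, 33.4, 32.4 and 43.1 CPM. All 3 pairs of groups overlapped. The remaining panel genes had log2 fold changes between -0.53 (Cxcl10) and 0.56 (Igtp). Ifit1 was at 6.49, 13.3, 5.63, 9.80 and 9.14 CPM in controls and 8.35, 10.5, 8.33, 8.19 and 10.3 CPM with estrogen. Mx1 was at 2.15, 5.58, 2.16, 4.96 and 4.20 CPM in controls and 3.72, 4.76, 4.54, 3.84 and 4.68 CPM with estrogen. The lowest values of Ifit1 and Mx1 were in controls, and the groups overlapped. Ifit3b was at 2.35, 4.05, 3.43, 3.03 and 4.12 CPM in controls and 3.31, 3.88, 2.85, 2.91 and 4.41 CPM with estrogen. Irf7 was at 32.3, 45.1, 28.7, 33.4 and 36.3 CPM in controls and 39.3, 49.5, 31.5, 33.02 and 47.4 CPM with estrogen. Stat2 was at 49.9, 74.3, 48.8, 53.8 and 57.6 CPM in controls and 59.3, 67.5, 58.5, 51.3 and 60.7 CPM with estrogen. Ifit3b, Irf7 and Stat2 overlapped too. Ifih1 was at 33.1, 37.3, 32.3, 33.1 and 38.5 CPM in controls and 34.1, 31.5, 28.7, 29.1 and 27.5 CPM with estrogen. In 4 of 5 estrogen libraries Ifih1 was below every control, and it was not called (-0.20 ± 0.21, adjusted p = 0.631). Zbp1 was at 8.18, 16.3, 5.47, 9.41 and 10.3 CPM in controls and 13.5, 9.87, 12.3, 9.25 and 12.8 CPM with estrogen. Tap1 was at 40.6, 42.1, 30.9, 37.5 and 42.3 CPM in controls and 35.9, 40.6, 34.97, 35.05 and 40.9 CPM with estrogen. Both overlapped. Gbp2 was at 46.3, 51.3, 51.6, 37.7 and 47.96 CPM in controls and 50.5, 50.2, 42.7, 45.98 and 44.7 CPM with estrogen. Igtp was at 0.326, 0.429, 0.163, 0.387 and 0.249 CPM in controls and 0.473, 0.582, 0.105, 0.507 and 0.572 CPM with estrogen. Cxcl10 was at 0.228, 0.381, 0, 0.290 and 0.107 CPM in controls and 0.126, 0.356, 0.0527, 0 and 0.101 CPM with estrogen. Gbp2 and Cxcl10 overlapped, Igtp was above every control in 4 estrogen libraries and lowest of all in replicate 3, and Cxcl10 was at 0 in 1 library of each group. The estrogen effect at 84 h minus that at 60 h was called in 0 members (0.0056% of all genes were called). An unadjusted p below 0.05 was found for 24 members, with no share of all genes beside it. DESeq2 called 0 of the 29 members to which it gave an adjusted p. Replicate 2 of the 60 h controls enters this difference. The members' median difference was 1.31, and 0.40 without the 3 libraries.

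The CLA effect was set against the estrogen effect within each table, though the times differ. The run of animal numbers of the estrogen-treated mice holds no control and no CLA-fed mouse, so that run enters both differences and cannot be told apart from estrogen. For 108 h minus 60 h, 9 members were called higher and 0 lower (17.2% and 14.9% of all genes): Dhx58, Irf9, Oas1a, Oas2, Oas3, Oasl1, Rtp4, Ifi44 and Trim30a. For 132 h minus 84 h it was 10 and 0 (19.1% and 18.9%): Dhx58, Oas1a, Oas2, Oas3, Oasl1, Rsad2, Ifi44, Trim30a, Parp14 and Cxcl10. Oasl1 differed by 3.41 ± 1.01, adjusted p = 0.016 in the early pair and 2.71 ± 0.50, adjusted p = 0.000368 in the late pair, and Oas1a by 2.75 ± 0.72, adjusted p = 0.00772 and 1.94 ± 0.43, adjusted p = 0.00182 (edgeR quasi-likelihood test). No GTPase was called in either. The 60 h control that stood apart enters the early pair. Leaving out the 3 libraries, 21 members were higher in the early pair (14.1% of genes) and 10 in the late pair (17.6%). Leaving out replicate 1, 4 or 5 of the 60 h controls gave 16, 17 and 17 in the early pair, and replicate 5 of the 108 h controls 19. Leaving out replicate 4 of CLA gave 16 in the late pair.

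Across the 4 control groups 5 members were called, Ifit3, Ifit3b, Mx1, Rsad2 and Cxcl10 (edgeR quasi-likelihood test; 13.4% of all genes were called), with adjusted p-values of 0.0149 for Cxcl10 to 0.0347 for Rsad2. It was 1 member without replicate 2 of the controls at 60 h, and also 1 without the 3 libraries (9.67% of genes). It was 10 without replicate 1 or 5 and 8 without replicate 4 of the 60 h controls, 9 without replicate 5 of the 108 h controls and 3 without replicate 3 of the 132 h controls.

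Other genes of the pathway were counted from lists. At 132 h with CLA, 13 of 15 nucleic acid sensors and adaptors were higher and 1 lower, and 11 and 1 at 108 h. Of all tested genes 27% were higher and 29% lower by 132 h, and 24.9% and 23% by 108 h. They include the RNA-sensing Toll-like receptor Tlr8 (2.48 ± 0.24, adjusted p = 1.74e-07 at 108 h; 3.28 ± 0.20, adjusted p = 1.81e-10 at 132 h), Tlr7 (2.46 ± 0.19, adjusted p = 3.15e-09 at 132 h) and Unc93b1, which carries these receptors to endosomes (1.23 ± 0.12, adjusted p = 1.9e-07; 1.60 ± 0.14, adjusted p = 1.54e-08). Ikbke, a kinase upstream of interferon factors, rose at 108 h (1.47 ± 0.16, adjusted p = 6.09e-07). The counts without the 3 libraries were 12 and 1 at 108 h and 11 and 1 at 132 h. These are edgeR quasi-likelihood values, as are those that follow.

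Of 9 receptors and kinases, 5 rose and 1 fell by 108 h, and 4 rose and 1 fell by 132 h (all genes: 24.9% and 23%, then 27% and 29%). Ifngr2, a chain of the interferon-gamma receptor, rose (0.73 ± 0.08, adjusted p = 7.67e-07; 0.91 ± 0.08, adjusted p = 2.07e-08), as did Il10rb, a chain of the interferon-lambda receptor (0.80 ± 0.08, adjusted p = 1.16e-07; 0.96 ± 0.11, adjusted p = 3.07e-07). Ifngr1 fell at 108 h (-0.35 ± 0.08, adjusted p = 0.00192) and Jak1 rose at 132 h (0.29 ± 0.06, adjusted p = 0.000273). Of 10 STAT and IRF factors 4 were higher and 1 lower at each time. Among them Irf5, a factor of macrophage activation (2.02 ± 0.24, adjusted p = 2.24e-06; 2.61 ± 0.20, adjusted p = 3.67e-09), Irf8, a factor of myeloid development (1.46 ± 0.23, adjusted p = 3.63e-05; 1.76 ± 0.31, adjusted p = 8.24e-05), and Stat3 rose (0.46 ± 0.08, adjusted p = 0.000167; 0.33 ± 0.06, adjusted p = 0.000103).

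Of 14 tested brakes on the pathway, CLA raised 6 and lowered 2 by 108 h, and raised 6 and lowered 4 by 132 h (all genes: 24.9% and 23%, then 27% and 29%). Rnaseh2b, a subunit of the enzyme that removes RNA from DNA, rose (0.82 ± 0.11, adjusted p = 4.95e-06; 0.97 ± 0.10, adjusted p = 6.39e-08), Nlrx1 fell (-0.43 ± 0.05, adjusted p = 6.04e-07; -0.63 ± 0.07, adjusted p = 1.74e-07), Nlrc3 rose at 108 h (1.29 ± 0.19, adjusted p = 2.01e-05) and Pias1 at 132 h (0.47 ± 0.05, adjusted p = 9.92e-08). Of 40 other genes induced by type I interferon, 7 rose and 0 fell by 108 h, while 19 rose and 1 fell by 132 h. The counts became 15 and 0, and 16 and 2, without the 3 libraries. Ifitm2, which hinders viral fusion, rose (0.45 ± 0.06, adjusted p = 9.2e-06; 0.64 ± 0.06, adjusted p = 3.91e-08), as did Slfn9 (1.53 ± 0.37, adjusted p = 0.00242; 2.04 ± 0.25, adjusted p = 1.64e-06) and, at 108 h, Trim25 (0.75 ± 0.17, adjusted p = 0.00139).

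Of 21 other genes induced by interferon-gamma, CLA raised 6 and lowered 2 by 108 h, and raised 6 and lowered 3 by 132 h (28.6% higher at each time, near the 24.9% and 27% of all genes). Nos2, the inducible nitric oxide synthase, fell (-1.21 ± 0.16, adjusted p = 4.43e-06; -1.41 ± 0.13, adjusted p = 2.8e-08), and Cxcl9, a chemokine like Cxcl10, fell at 132 h (-0.95 ± 0.16, adjusted p = 5.38e-05). Psme2, a proteasome activator subunit, and Ciita, the master factor of MHC class II, rose at 108 h (0.37 ± 0.06, adjusted p = 3.24e-05; 1.39 ± 0.27, adjusted p = 0.00025), and Tapbp, which loads peptide on MHC class I, rose at 132 h (0.41 ± 0.06, adjusted p = 1.33e-05). Without the 3 libraries the counts were 8 and 6 at 108 h and 5 and 6 at 132 h. Median log2 fold changes of this list were 0.00 and -0.01, of the type I list 0.09 and 0.50, and of all genes -0.01 and -0.03.

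With estrogen at 60 h the counts, higher then lower, were 1 and 0 of receptors and kinases and 1 and 0 of STAT and IRF factors. They were 0 and 0 of nucleic acid sensors, 0 and 0 of brakes, 0 and 4 of other type I genes and 1 and 3 of other interferon-gamma genes. Of all genes 4.07% were called higher and 2.42% lower. Without the 3 libraries the list counts were 0 and 0, 0 and 0, 0 and 0, 0 and 0, 1 and 4, and 0 and 1 in the same order (1.74% and 1.21% of genes). Ifnlr1, the other chain of the interferon-lambda receptor (1.45 ± 0.36, adjusted p = 0.0267) and Ido1, which breaks down tryptophan (1.73 ± 0.46, adjusted p = 0.0337), rose. The genes that fell included Mndal (-0.78 ± 0.16, adjusted p = 0.0119), Ifi203 (-0.88 ± 0.23, adjusted p = 0.0331), Slfn5 (-0.35 ± 0.10, adjusted p = 0.0443), Gbp5 (-1.20 ± 0.33, adjusted p = 0.0378) and Cxcl9 (-0.71 ± 0.20, adjusted p = 0.0398). At 84 h Ido1 (2.78 ± 0.36, adjusted p = 0.000107) and Stat3 (0.21 ± 0.06, adjusted p = 0.041) rose, the only genes of these lists called higher. At that time 1 of 40 other type I genes was called lower, where 3.45% of all genes were called higher and 1.97% lower. All are edgeR quasi-likelihood values.

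The 10 genes outside the set whose log2 CPM, after subtraction of group medians, correlated most with the members' mean over the 40 libraries were Phf11d, Slfn8, Dtx3l, Eif2ak2, Oas1b, Ifi44l, Zc3hav1, Daxx, Parp12 and Herc6, with Pearson's r from 0.968 (Phf11d) to 0.939 (Herc6). Without the 3 libraries the r of these genes was 0.576 (Daxx) to 0.827 (Phf11d) over 37 libraries. Members themselves, each set against the mean of the other 35, were closest for Irgm1 (0.977) and Ifit1 (0.977) and least close for Gbp11 (0.588), Igtp (0.752) and Gbp2 (0.796). Gbp2 dropped to 0.126 without the 3 libraries. The libraries share depth and scaling, so these are descriptions without a test.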

How the data were processed

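Per the labels, poly-A RNA of 40 mammary glands was sequenced with a stranded kit. The authors deposited raw read counts and RPKM per gene symbol in an early (60 h and 108 h) and a late (84 h and 132 h) table. The build was GRCm 38, per the submitters' processing notes, and no source used here names the aligner or counter. From the counts, edgeR 4.0.16 (R 4.3.3) filtered genes (minimum count 10, minimum total 15), scaled by TMM and ran robust quasi-likelihood tests, called at a Benjamini-Hochberg adjusted p below 0.05 over all genes. The 4 groups of a table shared 1 spread; comparisons between tables used all 40 libraries. CPM levels use TMM over 40 libraries, and log2 CPM a prior count of 2. An SE is the log2 fold change over the root of F. RPKM served for levels between genes and, in limma 3.58.1 with 0.1 added, as an alternative. Other alternatives were DESeq2 1.42.0, RLE, no filter, voom weights, 2 groups alone, and left-out libraries. The script was tested on simulated data. Members and lists were chosen with earlier results of these data known. Values per library are given for 14 panel genes and, in each comparison, up to 4 called members of the largest rise and of the largest fall. Pathway lists name up to 3 called genes each by smallest p; some genes of these lists are not reported here. Replicates are numbered in accession order. The labels call them biological replicates without saying which animals shared a cage or day. No library pair fell below a chi-square of 12.9 per gene, so none was counted as a duplicate. All per-sample columns were used.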

Additional observations from a re-analysis of the deposited data

Results flagged for a closer look

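In these cases 1 library's log2 CPM lay so far from the other 4 of its group that the gap passed Dixon's criterion. For 1 value chosen beforehand, chance passes about 1 in 20 groups. The 3 libraries that stood apart were already picked from these same levels, and the members vary together. That rate therefore does not apply to them or to counts of members, which are descriptions. No explanation was tested. Replicate 2 of the controls at 60 h was the highest of its group in the mean of the members (6.42), Ifih1 (6.69), Stat2 (7.69), Ifit1 (7.31), Ifit3b (6.35), Mx1 (7.41), Oas2 (7.13), Bst2 (6.91), Isg15 (6.55), Gbp2 (6.54), Tap1 (6.58) and Cxcl10 (3.56). Replicate 3 of CLA at 132 h was the highest in the mean of the members (6.05), Ifih1 (6.32), Zbp1 (6.04), Irf7 (7.24), Stat2 (7.36), Ifit1 (6.63), Ifit3b (4.88), Mx1 (6.16), Bst2 (6.69) and Isg15 (6.07). Over all 36 members, 28 passed in the first library's group and 26 in the second's. In the controls at 108 h, replicate 5 was the highest in Mx1 (4.95) and Cxcl10 (1.93), and its mean over the members did not pass.

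Over all 36 members, 5 passed in the estrogen group at 60 h, 3 in that at 84 h, 4 in the controls at 132 h, 3 in the controls at 108 h, 2 in the CLA group at 108 h and 0 in the controls at 84 h, and those among the 14 members described one by one at all times are named here. With estrogen at 60 h, Stat2 was high in replicate 5 (5.98) and Oas2 low in replicate 4 (4.03). With estrogen at 84 h, Isg15 was low in replicate 4 (2.54) and Igtp low in replicate 3 (-2.52). In the controls at 132 h, Ifit1 was low in replicate 3 (2.30).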

How the results depend on the processing

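Counts are of members called higher or lower against the values in the report, and the cause of each change was not tested. With all libraries 24.9% of all genes were called higher with CLA at 108 h and 27% at 132 h. Shares for the fit without the 3 libraries are given above. Beside the counts of the other settings no share of all genes stands. Those counts show how the calls move and are not set against a background. Estrogen at 60 h, 3 lower: 1 with no filter, 1 with limma on RPKM plus 0.1, 0 with RPKM plus 1, 0 with voom weights, 16 with DESeq2 (23 members had an adjusted p), 1 without the 3 libraries, 0 without the skin-high libraries, 0 with 2 groups alone and 0 to 7 on leaving out 1 library. CLA at 108 h, 1 higher: 0 with no filter, 6 and 5 with RPKM plus 0.1 and plus 1, 5 with voom weights, 19 without the 3, 0 without the skin-high libraries, 7 with 2 groups alone and 0 to 3 on leaving out 1. CLA at 108 h, 0 lower: 2 with voom weights, 1 without the 3 and 2 with 2 groups alone. CLA at 132 h, 24 higher: 15 without the 3, 7 without the skin-high libraries, 13 with 2 groups alone and 15 to 27 on leaving out 1. CLA at 132 h, 1 lower: 0 with no filter, 4 without the 3, 0 without the skin-high libraries, 0 with a term for the animal-number run, 0 with 2 groups alone and 0 to 4 on leaving out 1. The CLA effect at 108 h minus the estrogen effect at 60 h, 9 higher: 5 with no filter, 5 with voom weights, 21 without the 3, 1 without the skin-high libraries and 7 to 19 on leaving out 1. The CLA effect at 132 h minus the estrogen effect at 84 h, 10 higher: 2 without the skin-high libraries and 7 to 16 on leaving out 1. Controls across times, 5 called: 3 with no filter, 0 and 0 with RPKM plus 0.1 and plus 1, 0 with voom weights, 1 without the 3 and 1 to 10 on leaving out 1. Cxcl10 with CLA at 108 h turned from -0.38 to 1.76 without the 3 libraries, which leaves out the highest control by construction. Leaving out the 3 libraries was added after the data were seen. The RPKM plus 0.1 scale moved the median of all genes at 132 h to 0.129. No paired analysis was possible because replicate numbers follow accession order only. Low counts limit Cxcl10, Igtp and the interferon genes, which could not be tested.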
